A study of Mus musculus with 4 samples.

Results

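Voltage-gated calcium channel subunits were followed in heart RNA of mice with and without PIMT in cardiomyocytes. The members were taken as a list of 9 genes by symbol: the L-type α1 subunits *Cacna1c* and *Cacna1d*, the T-type α1 subunits *Cacna1g* and *Cacna1h*, the β subunits *Cacnb1*, *Cacnb2* and *Cacnb3*, and the α2δ subunits *Cacna2d1* and *Cacna2d2*. All 9 were found among the 23337 gene symbols of the files, and all 9 had at least 91 reads in every library. In both csPIMT-/- libraries the RNA of *Cacna1d*, *Cacna1h*, *Cacnb2* and *Cacna2d1* was lower than in both control libraries, and that of *Cacnb1* was higher. By the same rule 35.1% of 15589 genes were lower and 34.6% higher. *Cacna1c*, the most abundant α1 gene, had ratios of 0.965 and 1.28 to its age-matched controls. *Cacna2d2* was higher at 2 months and lower at 6 months.

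The α1 subunit forms the pore and the voltage sensor of a calcium channel. In L-type channels a β subunit binds to the cytoplasmic linker after the first repeat of α1 and brings the channel to the membrane, and an α2δ subunit, which is anchored outside the cell, raises the current. In ventricular myocytes the L-type current through the product of *Cacna1c* starts each contraction by opening ryanodine receptors. T-type channels open at more negative voltages, need no β subunit, and are known from the fetal heart, the pacemaker tissue and the stressed ventricle.

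There were 4 libraries, each made from the RNA of a pool of 5 hearts from C57BL6/J mice of both sexes, and no replicate libraries. The controls were PIMT fl/fl mice of 2 and 6 months, littermates whose PIMT gene carries loxP sites but which lack Cre. The csPIMT-/- mice of 2 and 6 months carry the same floxed alleles and express Cre under the α-MyHC promoter, which is active in cardiomyocytes, so other cells of the heart keep PIMT. Effects of the Cre transgene and of the deletion cannot be told apart in this design. Reads on genes numbered 29823073 to 40705783 per library. *Tgs1*, the symbol of PIMT in the files, had 579.8 (2 months) and 816.2 (6 months) normalized counts in the controls against 160.3 and 162.3 after the deletion. This is the direction that the labels give. Its ratios to the age-matched controls were 0.271 and 0.194. With the GC trend described in the next paragraph subtracted they were 0.628 and 0.514, a smaller departure in the same direction. Atrial marker genes differed between libraries of the same genotype (values beside *Cacna2d2*). The summed level of lung markers was highest in the 2-month csPIMT-/- library, at 1180 normalized counts against 23.7 to 98.8 in the others. *Bpifa1* made up 83.0% of that sum. *Ager*, the most abundant lung marker in the other libraries, went the other way, with 9.86 normalized counts there against 13.2 to 80.1. Ventricular cardiomyocyte markers were present in all libraries, led by *Myh6* with 452317 to 672043 normalized counts. In whole hearts, fewer cells of a type and less RNA per cell cannot be told apart.

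The normalized count is the reads of a gene on the authors' scale, where 1 read was worth 0.865 to 1.23. Genotype ratios set csPIMT-/- against the age-matched control, from the reads of both libraries, each with a 95% Clopper-Pearson interval. The interval holds counting error only, and not the variation between mice. Ratios between ages were formed in the same way. Each of these ratios was scaled on its own pair of libraries, so it departs somewhat from the quotient of the printed normalized counts. Between genotypes, transcripts rich in G and C had higher log2 ratios (Spearman rho across genes 0.594 at 2 months and 0.620 at 6 months, genes not being independent replicates), so the members' genotype ratios are also given with this GC trend subtracted.

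The binding of β subunits separates both kinds of α1 gene at the level of sequence. A search of annotated coding transcripts for the β-binding motif of the α1 linker found it in 22 of 22 transcripts of *Cacna1c* and 5 of 5 of *Cacna1d*, and in 0 of 11 of *Cacna1g* and 0 of 5 of *Cacna1h*. The coding bases of the motif are shown because the β genes described further on are partners of the first pair only. Capitals mark the codons of the residues searched for, and the sequences are from GENCODE M21 transcripts (GRCm38), in exon 9 of the longest transcript of each gene.
Cacna1c, chr6:118734906-118734959, minus strand: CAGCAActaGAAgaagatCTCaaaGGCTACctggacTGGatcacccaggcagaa
Cacna1d, chr14:30142600-30142653, minus strand: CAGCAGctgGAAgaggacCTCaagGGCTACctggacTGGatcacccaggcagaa
The stretches share 49 of 54 bases. Reads were counted per gene, so which isoform of the motif's neighbourhood was expressed was not measured.

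Levels per kilobase of transcript are corrected for length, but not for the GC trend between genotypes. On this scale *Cacna1c* led in the 2-month control with 1149 normalized reads per kb, followed by *Cacnb2* with 921 and *Cacna2d1* with 705. In the 6-month control *Cacna2d1* came first with 1923, then *Cacna1c* with 1272 and *Cacnb2* with 1011. In csPIMT-/- hearts *Cacna1c* stayed first, with 1132 at 2 months and 1668 at 6 months, and the places below it changed. *Cacnb1*, in the seventh and the sixth place in the controls with 113 and 117 per kb, was the third at 2 months with 240 and the second at 6 months with 618. *Cacna1h* went from 116 and 133 per kb in the controls to 31.8 at 2 months and 11.5 at 6 months, where it was the last of the 9. With 1 library per group no spread is available, and neighbours such as *Cacna1h* and *Cacnb1* in the 2-month control (1102 reads on the longer transcript, 444 on the shorter) should not be read as ordered.

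**Figure D1:**
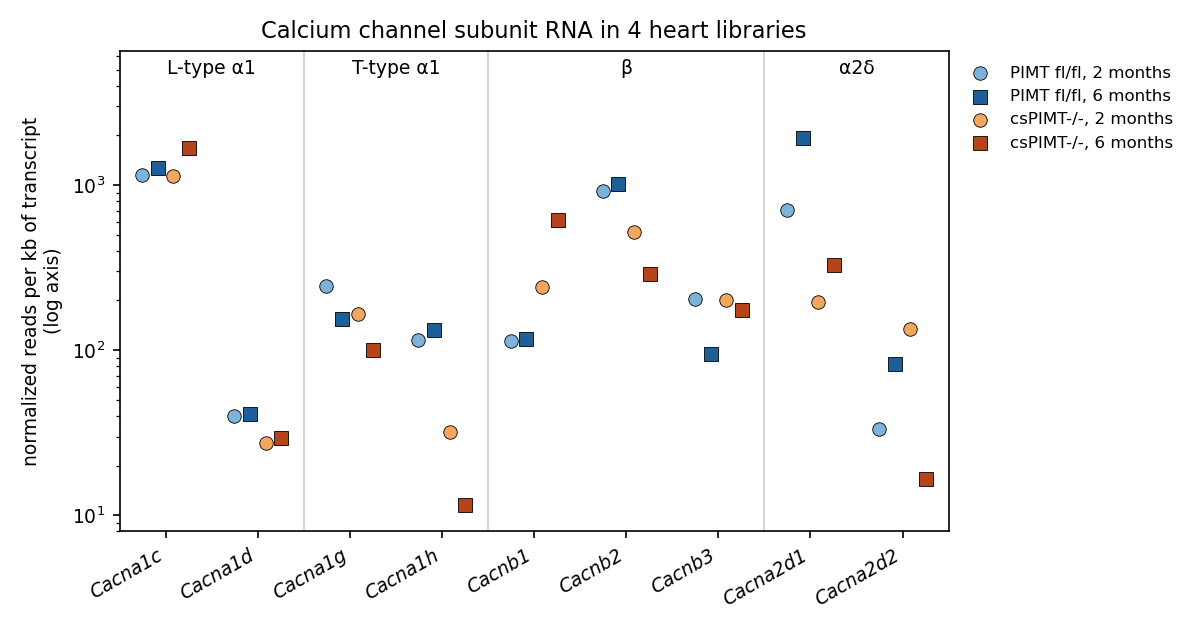
Normalized reads per kb of transcript (vertical axis, log scale) of the 9 subunit genes in the 4 heart libraries, 1 point per library. *Cacna1h* falls from 116 and 133 per kb in the PIMT fl/fl libraries to 31.8 and 11.5 in the csPIMT-/- libraries, and *Cacnb1* rises from 113 and 117 to 240 and 618.

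*Cacna1c* (chr6:118587240-119196418, minus strand) encodes the pore of the main cardiac L-type channel. The controls had 15125 (2 months) and 16743 (6 months) normalized counts, and the csPIMT-/- libraries 14896 and 21955, in the same order of ages as in all pairs given here. The 6-month csPIMT-/- library was the highest of the 4 and the 2-month one the lowest, so the genotypes overlapped. The ratio was 0.965 (95% interval 0.943 to 0.988) at 2 months and 1.28 (1.25 to 1.30) at 6 months, and 0.967 and 1.23 after the GC trend was subtracted. Both departures from 1 are beyond counting error, in opposite directions, and both are smaller than those of most members. *Cacna1c* made up 74.1% and 79.4% of the α1 RNA per kb in the controls and 83.4% and 92.2% in csPIMT-/- hearts.

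*Cacna1d* (chr14:30039939-30491455, minus strand), the L-type α1 subunit best known from the sinoatrial node and atria, was a minor transcript. It had 345.3 and 358.8 normalized counts in the controls and 238.0 and 254.9 in the csPIMT-/- libraries, which lay below both controls. The ratios were 0.676 (0.566 to 0.804) and 0.692 (0.588 to 0.813), and 0.803 and 0.813 with the GC trend subtracted. For each read of *Cacna1c* there were 0.0228 and 0.0214 reads of *Cacna1d* in the controls and 0.0160 and 0.0116 in csPIMT-/- hearts. Sinoatrial node markers moved with it: their summed level was 3204 and 2783 normalized counts in the controls and 1513 and 1317 in the csPIMT-/- libraries, 2 of 6 markers were below a ratio of 0.5 at 2 months and 4 of 7 at 6 months, and *Isl1* was at 0 in the 2-month control and the 6-month csPIMT-/- library. Their part in the *Cacna1d* values was not tested.

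*Cacna1h* (chr17:25374285-25433783, minus strand), a T-type α1 subunit, showed the lowest ratios of the 4 α1 genes at both ages. Its reads numbered 1102 and 1245 in the controls and 212 and 91 in the csPIMT-/- libraries, or 953.6 and 1095 against 261.4 and 94.7 normalized counts. Both csPIMT-/- libraries were below both controls, and the 6-month one was the lowest. The ratio was 0.269 (0.231 to 0.312) at 2 months and 0.0842 (0.0673 to 0.104) at 6 months. The subtraction of the GC trend moved both ratios further from 1, to 0.162 and 0.0497, since this transcript has a GC content of 60.0% and genes of such content were on the whole higher in csPIMT-/- hearts.

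*Cacna1g* (chr11:94408391-94474198, minus strand), the other T-type gene of the heart, had 2060 and 1303 normalized counts in the controls and 1397 and 839.6 in the csPIMT-/- libraries. It was lower with the deletion at each age and lower at 6 than at 2 months in each genotype, and the 2-month csPIMT-/- value lay above the 6-month control. The genotype ratios were 0.665 (0.619 to 0.714) and 0.628 (0.576 to 0.685), and 0.409 and 0.381 with the GC trend subtracted. As the GC content of *Cacna1g* is 58.1%, close to that of *Cacna1h*, the 2 T-type genes can be compared within a library with little influence of GC content. There were 0.463 and 0.841 reads of *Cacna1h* per read of *Cacna1g* in the controls and 0.187 and 0.113 in csPIMT-/- hearts. This within-library ratio changed by a factor of 0.404 at 2 months and 0.134 at 6 months between genotypes, and by 0.396 and 0.130 with the GC trend subtracted. Both T-type genes together gave 362 and 288 normalized reads per kb in the controls and 198 and 112 in csPIMT-/- hearts.

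The β subunits, which bind the linker whose coding bases are printed above, moved in different directions. *Cacnb2* (chr2:14603088-14987908, plus strand), the predominant β subunit of cardiac myocytes, had 3633 and 3989 normalized counts in the controls and 2054 and 1139 in the csPIMT-/- libraries. Both csPIMT-/- values lay below both controls. The ratio was 0.554 (0.523 to 0.587) at 2 months and 0.278 (0.260 to 0.297) at 6 months. With the GC trend subtracted the ratios were 0.826 and 0.440.

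*Cacnb1* (chr11:98001508-98023034, minus strand), known as the β subunit of the skeletal muscle channel, moved the other way. Its normalized counts were 384.2 and 398.4 in the controls, and 816.2 and 2097 in the csPIMT-/- libraries. The ratio of the controls, 6 over 2 months, was 0.991 scaled on that pair of libraries and 1.04 on the deposited scale. Both csPIMT-/- libraries were above both controls, with the 6-month one far above the rest. The ratio was 2.08 (1.84 to 2.35) at 2 months and 5.13 (4.63 to 5.69) at 6 months. With the GC trend subtracted the 2-month ratio was 1.26, within 2-fold, and the 6-month ratio 3.02. Skeletal muscle markers summed to 794 and 253 normalized counts in the controls and 388 and 610 in the csPIMT-/- libraries, with 4 of 9 below a ratio of 0.5 and 1 above 2 at 2 months, 1 below and 6 above at 6 months, and *Tnnc2* was at 0 in both controls. Their part in the *Cacnb1* values was not tested.

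*Cacnb3* (chr15:98630840-98644529, plus strand), a β subunit found in many tissues, had 559.8 and 260.3 normalized counts in the controls and 547.4 and 478.6 in the csPIMT-/- libraries. The 6-month control was the lowest and stood apart from the other 3 libraries. The genotype ratio was accordingly 0.958 (0.848 to 1.08) at 2 months and 1.79 (1.54 to 2.08) at 6 months, and 0.569 and 1.03 with the GC trend subtracted. Set against the 2-month control instead, the older csPIMT-/- library gave a ratio of 0.838.

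Read within each library, *Cacnb1* had 0.106 and 0.0999 reads per read of *Cacnb2* in the controls, 0.397 in the 2-month and 1.84 in the 6-month csPIMT-/- library. The intervals of the csPIMT-/- values, 0.363 to 0.435 and 1.71 to 1.98, did not overlap with those of the controls, 0.0957 to 0.117 and 0.0905 to 0.110. Between genotypes this ratio changed 3.76-fold at 2 months and 18.4-fold at 6 months, and 1.52-fold and 6.86-fold with the GC trend subtracted. *Cacnb1* and *Cacnb3*, with GC contents of 59.7% and 61.3%, allow the same comparison at nearly equal GC content. There the reads of *Cacnb1* per read of *Cacnb3* were 0.686 and 1.53 in the controls and 1.49 and 4.38 in csPIMT-/- hearts. This was a change of 2.17-fold and 2.86-fold between genotypes. For this pair the genotypes overlapped, as the 2-month csPIMT-/- value (1.32 to 1.69) lay below that of the 6-month control (1.32 to 1.78). As shares of β subunit RNA per kb, *Cacnb2* made up 74.3% and 82.6% in the controls, 54.2% in the 2-month and 26.7% in the 6-month csPIMT-/- hearts, and *Cacnb1* 9.13% and 9.59%, then 25% and 57.1%. The sum of the 3 β genes was 1239 and 1224 normalized reads per kb in the controls and 961 and 1081 in csPIMT-/- hearts.

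**Figure D2:**
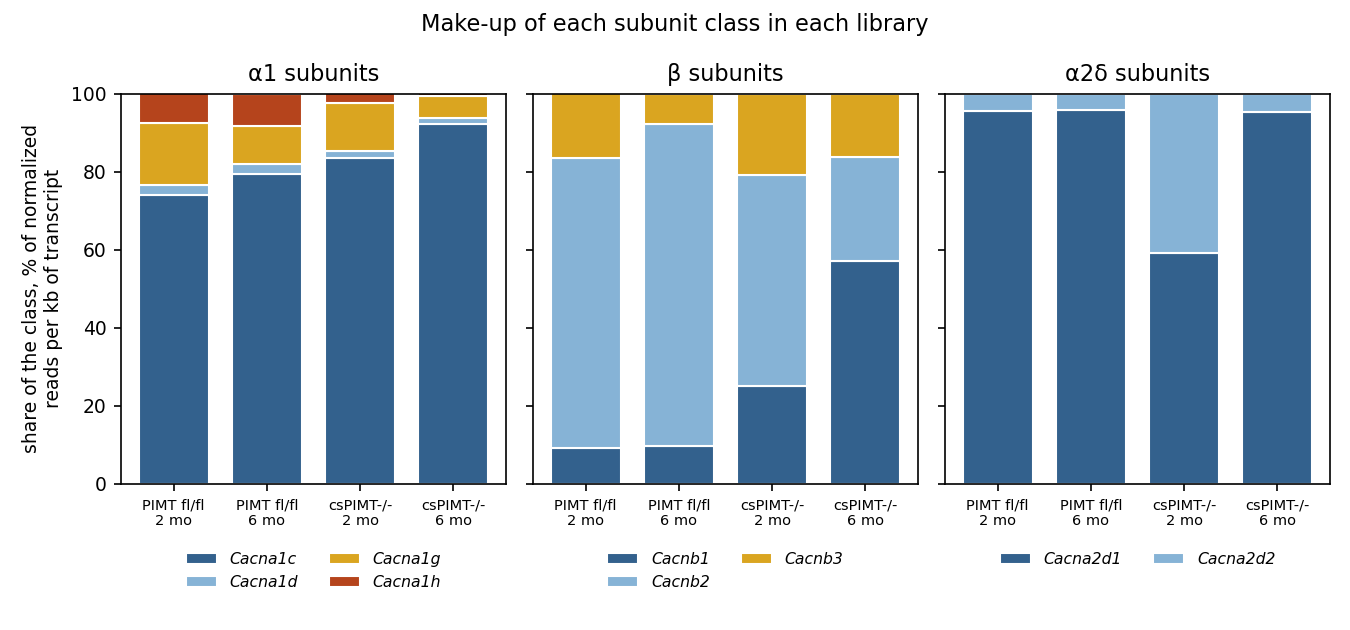
Share of each gene in its subunit class, in percent of normalized reads per kb of transcript (vertical axis), for the α1, β and α2δ genes in each of the 4 libraries. *Cacnb1* takes 9.13% and 9.59% of the β class in the PIMT fl/fl libraries and 25% and 57.1% in the csPIMT-/- libraries, and *Cacna2d2* takes 40.9% of the α2δ class in the 2-month csPIMT-/- library against at most 4.76% in the others. The shares are not corrected for the GC trend.

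*Cacnb1* and *Cacna1h* were the members for which the study lists RT-qPCR primers. The primers show which exons that assay covers, and each matched coding transcripts of its own gene and no transcript of another member or α1 gene.
Cacnb1 forward primer: cctgccagtggtaatgaaatga
Cacnb1 reverse primer: ctcacgctagtcttggctga
Cacna1h forward primer: cgtgacactgggcatgttc
Cacna1h reverse primer: ccaccatcttgataaccatctcc
The *Cacnb1* forward primer lies across the junction of exons 6 and 7 (chr11:98011486-98011875, with the intron) and the reverse primer in exon 7 (chr11:98011395-98011414), and each occurs in 3 of 5 coding transcripts. The *Cacna1h* primers lie in exon 3 (chr17:25397785-25397803) and exon 4 (chr17:25397597-25397619), in 4 and 3 of 5 coding transcripts. The read counts of the files cover whole genes and so include transcripts that these primers do not reach.

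*Cacna2d1* (chr5:15934691-16374511, plus strand) encodes the main cardiac α2δ subunit. The controls had 5239 and 14300 normalized counts, and the csPIMT-/- libraries 1450 and 2452. Both csPIMT-/- libraries were below both controls, but the controls themselves differed 2.61-fold. The genotype ratio was 0.271 (0.255 to 0.289) at 2 months and 0.167 (0.160 to 0.174) at 6 months. Its transcript has the lowest GC content of the 9, 40.7%, where the trend over all genes was itself at -1.38 and -1.54 on the log2 scale. With the trend subtracted, the ratios were 0.705 and 0.487. Per read of *Cacna1c* there were 0.346 and 0.854 reads of *Cacna2d1* in the controls and 0.0973 and 0.112 in csPIMT-/- hearts.

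*Cacna2d2* (chr9:107399612-107529343, plus strand), an α2δ subunit best known from the cerebellum, was the member whose direction differed most between ages. It had 222 and 545 reads in the controls, 636 in the 2-month and 92 in the 6-month csPIMT-/- library, or 192.1, 479.3, 784.1 and 95.7 normalized counts. The csPIMT-/- libraries were the highest and the lowest of the 4. The ratio was 4.0 (3.43 to 4.68) at 2 months and 0.195 (0.154 to 0.243) at 6 months, and 2.62 and 0.127 with the GC trend subtracted. The controls differed 2.38-fold. Its share of the α2δ RNA per kb was 4.48% and 4.12% in the controls, 40.9% in the 2-month and 4.76% in the 6-month csPIMT-/- hearts. These shares are not corrected for the GC trend. Between genotypes the ratio of *Cacna2d2* to *Cacna2d1* changed by a factor of 14.8 at 2 months and 1.16 at 6 months. With the GC trend subtracted the factors were 3.71 and 0.261.

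Atrial markers also varied between libraries. All 10 of the list had reads in every library, and 7 of them were above a ratio of 2 at 2 months and 1 below 0.5, while 5 were below 0.5 at 6 months and 1 above 2. The summed level of the list was 45886 and 132349 normalized counts in the controls and 343926 and 355330 in the csPIMT-/- libraries, and *Nppa*, also a gene of the stressed ventricle, made up 53.4% to 90.1% of it. Without *Nppa*, a choice made after the values were seen, the other 9 genes summed to 7704 and 61689 in the controls, 142746 in the 2-month and 35034 in the 6-month csPIMT-/- library. *Cacna2d2* and the sum of these 9 genes were both highest in the 2-month csPIMT-/- library and second in the 6-month control. *Cacna2d2* was lowest in the 6-month csPIMT-/- library, but the sum was lowest in the 2-month control. Not every gene of the 9 moved with the sum. *Kcna5* and *Nr2f2* were lowest in the 2-month csPIMT-/- library, at 951.8 and 230.6 normalized counts. *Kcnj3* was highest in the 6-month control, at 2893. Markers of brown fat also stood out in the 2-month csPIMT-/- library, where 4 of 7 were above a ratio of 2 and 1 below 0.5, with a median ratio of 13.7. At 6 months 1 of 6 was above 2 and 3 were below 0.5. *Ucp1*, named after its values were seen, had 8.65 and 93.2 normalized counts in the controls and 1766 and 12.5 in the csPIMT-/- libraries. *Adipoq*, *Plin1*, *Elovl3* and *Cox8b* were likewise highest in the 2-month csPIMT-/- library, but *Cidea* and *Fabp4* were not. *Fabp4* was at 10296 and 9937 in the controls and 3225 and 3308 in the csPIMT-/- libraries. The choice of these genes was also made after the values were seen. The list summed to 22642 and 22404 in the controls and 29317 and 20772 in the csPIMT-/- libraries, led by *Cox8b*, which the heart also expresses, and *Elovl3* was at 0 in the 6-month control. The part of atrial tissue and fat in the *Cacna2d2* values was not tested. Against the control of the other age the 2-month ratio was 1.58 and the 6-month ratio 0.488.

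**Figure D3:**
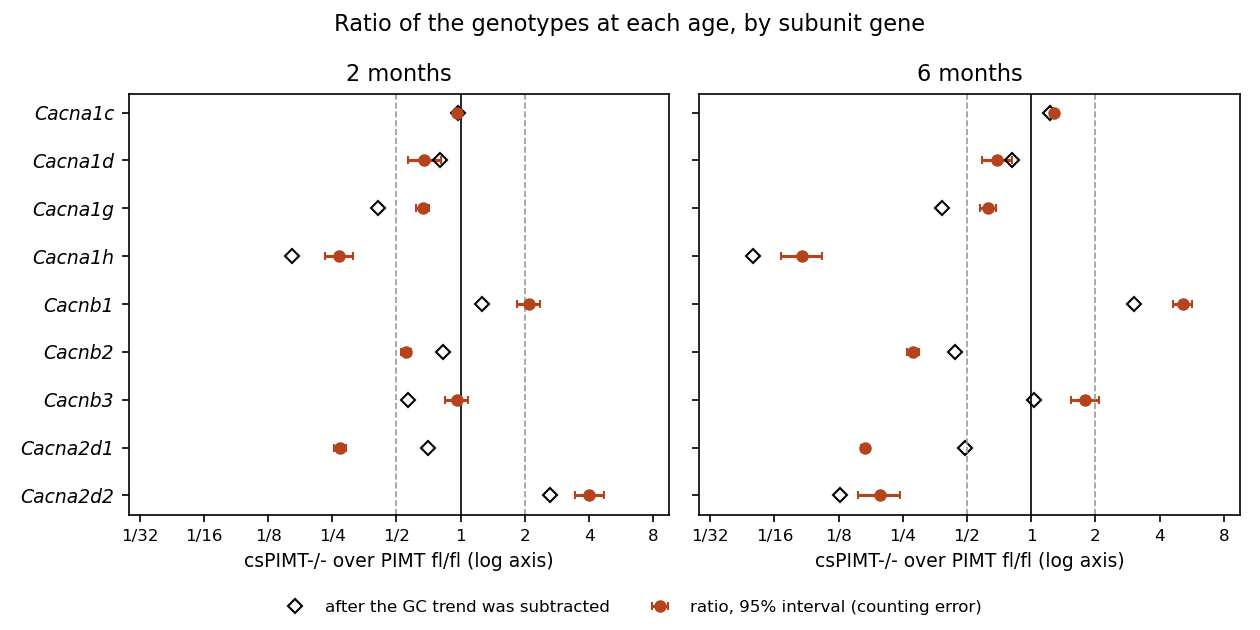
Ratio of csPIMT-/- over PIMT fl/fl (horizontal axis, log scale) at 2 and at 6 months for the 9 genes, as filled points with 95% intervals for counting error and, as open diamonds, after the GC trend was subtracted. The dashed lines mark ratios of 0.5 and 2. *Cacna1h* lies below 0.5 in both panels with either value, *Cacnb1* reaches 5.13 at 6 months, and *Cacna2d2* changes from 4.0 to 0.195.

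Counted over the list, 2 of 9 members had a ratio below 0.5 at 2 months (*Cacna1h* and *Cacna2d1*) and 2 above 2 (*Cacnb1* and *Cacna2d2*). Over all 15152 genes compared, 23.0% were below 0.5 and 16.4% above 2. At 6 months 4 of 9 were below 0.5 (*Cacna1h*, *Cacnb2*, *Cacna2d1* and *Cacna2d2*) and 1 above 2 (*Cacnb1*), where 25.7% and 16.0% of 15218 genes were. The 2-month counts are close to these shares. At 6 months the count below 0.5 is above its share and the other is below it, and no test of the list was made. The median ratio of the members was 0.676 at 2 months and 0.628 at 6 months, on the log2 scale -0.56 and -0.67 against a median of -0.03 over all genes at both ages. With the GC trend subtracted, 2 were below 0.5 at 2 months (*Cacna1g* and *Cacna1h*) and 1 above 2 (*Cacna2d2*), and 5 were below 0.5 at 6 months, *Cacna1g* being added, with *Cacnb1* above 2. The shares of all genes under that setting were 11.5% below and 14.1% above at 2 months, and 13.2% and 13.0% at 6 months.

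**Figure D4:**
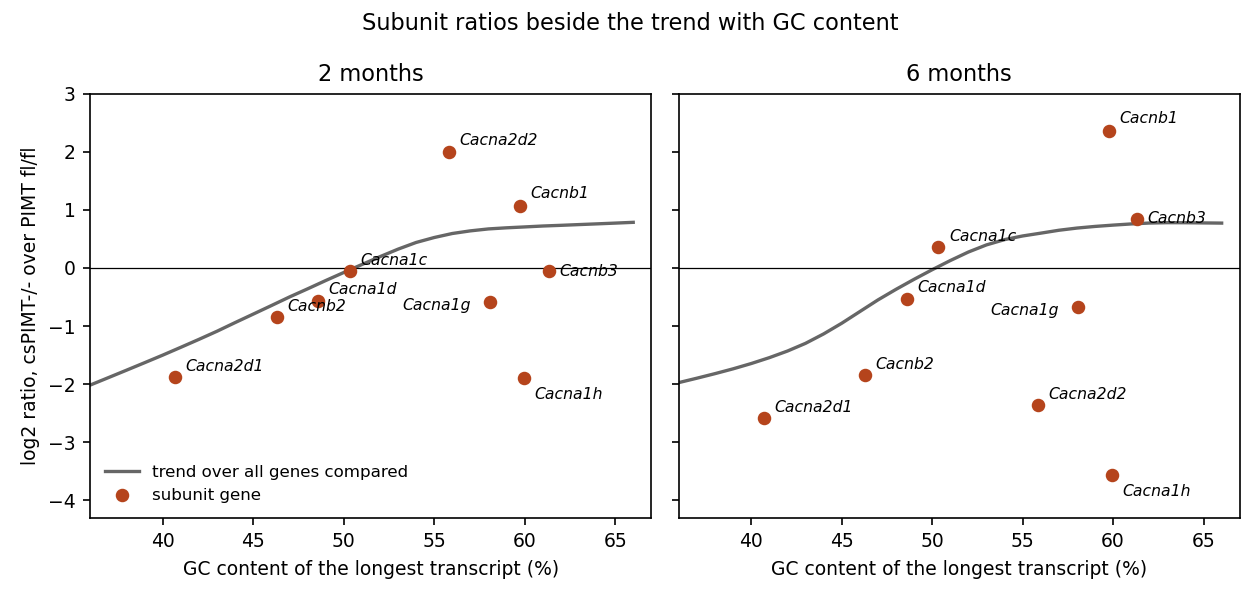
log2 ratio of csPIMT-/- over PIMT fl/fl (vertical axis) of the 9 genes against the GC content of the longest transcript in percent (horizontal axis), at 2 and at 6 months, with the trend over all genes compared as a line. *Cacna1h* lies far below the line at both ages at a GC content of 60.0%, while *Cacna2d1*, at 40.7%, lies where the line itself is low.

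Over both ages, limma compared the genotypes with age in the model, on 14935 genes. Its 1 residual degree of freedom is the change of the genotype difference with age, so the ages stood in for replicates. The variation between pools of the same group was not measured. limma called 4 of 9 members at an adjusted p under 0.05 (Benjamini-Hochberg over all genes), 3 lower and 1 higher, where 17.9% of all genes were called lower and 12.1% higher. *Cacna2d1* differed by -2.19 on the log2 scale (SE 0.254, limma adjusted p = 0.0124) and *Cacna1h* by -2.68 (SE 0.466, limma adjusted p = 0.0173). *Cacnb2* differed by -1.31 (SE 0.301, limma adjusted p = 0.0300) and *Cacnb1* by 1.75 (SE 0.370, limma adjusted p = 0.0248). For the other 5 members the limma adjusted p was 0.0989 (*Cacna1g*, -0.59), 0.269 (*Cacna1d*, -0.50), 0.365 (*Cacnb3*, 0.43), 0.548 (*Cacna1c*, 0.19) and 0.926 (*Cacna2d2*, -0.13), which does not show that they were equal between genotypes. With the GC trend subtracted limma called no member, nor any gene (smallest adjusted p = 0.113), while 3 members and 3250 genes had an unadjusted p under 0.05, and the direction of the 4 called members was kept, with *Cacna1h* at -3.44, *Cacnb1* at 0.996, *Cacna2d1* at -0.73 and *Cacnb2* at -0.69. Without the mean trend of the variance limma called no member and no gene (smallest adjusted p = 0.0671), while 4 members and 5931 genes had an unadjusted p under 0.05. Fits to 3 libraries, in which age had to leave the model as well, called no member without the 6-month control (224 of all genes, 4 members unadjusted), *Cacna2d1* alone without the 2-month control (1268 of all genes) and 3 members, *Cacnb1* not among them, without the 6-month csPIMT-/- library (3673 of all genes). Both csPIMT-/- libraries lay below both controls in 4 members and above both in 1, on the deposited scale, where 35.1% of 15589 genes were below and 34.6% above.

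Whether the effect of genotype changed with age could not be tested, because a model of the 4 libraries that holds it leaves no residual degree of freedom. The ratio at 6 months divided by that at 2 months was 0.313 for *Cacna1h*, 2.46 for *Cacnb1*, 0.502 for *Cacnb2*, 0.616 for *Cacna2d1* and 0.0486 for *Cacna2d2*, and between 0.945 and 1.87 for the other members.

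Between ages within a genotype, which uses the same 4 libraries again, the controls placed 1 of 9 members below 0.5 (*Cacnb3*, 0.444) and 2 above 2 (*Cacna2d1*, 2.61, and *Cacna2d2*, 2.38), where 5.21% of genes were below and 8.15% above. These pools differ in mice as well as in age. *Cacna1g* was at 0.604 (0.566 to 0.645), and the remaining 5 members were at 0.991 to 1.10. In csPIMT-/- hearts the ratio of 6 over 2 months was below 0.5 for *Cacna1h* (0.352) and *Cacna2d2* (0.119) and above 2 for *Cacnb1* (2.5), with 8.73% and 9.17% of genes past these limits. *Cacnb2* was at 0.539, *Cacna1c* at 1.43 and *Cacna2d1* at 1.64.

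Of the 17 other genes of the channel family, 4 reached 100 reads in a library, 6 had between 10 and 99 and 7 fewer, with no read for 2 of these. The 4 are *Cacna1a*, the P/Q-type α1 subunit of nerve terminals, *Cacna1s*, the α1 subunit of skeletal muscle, *Cacnb4*, a β subunit of the brain, and *Cacng7*, a γ subunit of the brain. *Cacna1s*, the usual partner of *Cacnb1* in skeletal muscle, had 81.3 and 213.7 normalized counts in the controls and 488.2 and 289.2 in the csPIMT-/- libraries, with ratios of 5.88 (4.69 to 7.45) and 1.32 (1.11 to 1.57). *Cacnb4* had 99.5 and 153.9 in the controls and 78.9 and 38.5 in the csPIMT-/- libraries, with ratios of 0.777 (0.563 to 1.06) and 0.244 (0.166 to 0.349). *Cacng7* was at 1.85 (1.29 to 2.66) and 3.63 (2.59 to 5.18), and *Cacna1a* at 1.81 (1.55 to 2.11) and 1.17 (1.04 to 1.32). With the GC trend subtracted *Cacnb4* turned to 2.07 at 2 months and stood at 0.729 at 6 months, *Cacna1a* was at 1.11 and 0.707, *Cacng7* at 1.13 and 2.19, and *Cacna1s* at 4.22 and 0.915. Of the 17, 0 of 7 compared were below 0.5 and 3 above 2 at 2 months, and 2 of 9 were below and 4 above at 6 months, beside the 23.0% and 16.4% of all genes at 2 months and the 25.7% and 16.0% at 6 months. limma called none of the 6 it could test, the 4 named ones with adjusted p values of 0.0923 (*Cacng7*), 0.0998 (*Cacna1s*), 0.184 (*Cacnb4*) and 0.214 (*Cacna1a*).

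Proteins that act on these channels were taken as a list of 25 genes, including calmodulins, RGK proteins, anchoring proteins and ryanodine receptors. At 2 months 6 of 23 were below 0.5 and 2 above 2, and at 6 months 8 of 24 were below and 1 above, with median ratios of 0.833 and 0.743. limma called 5 of 24 lower and 0 higher, where 17.9% and 12.1% of all genes were called. No test of the list was made, and the shares of all genes past 2-fold are those given for the members. Among partners with at least 100 reads in a library, the 3 lowest by mean log2 ratio were *Akap5*, which anchors PKA and calcineurin at the channel, *Calm2*, 1 of the calmodulin genes, and *Cabp1*, a calmodulin-like protein. *Akap5* had 332 and 720 reads in the controls and 18 and 2 in the csPIMT-/- libraries, with ratios of 0.0757 (0.0443 to 0.122) and 0.00320 (0.000387 to 0.0116), and a limma log2 difference of -5.65 (adjusted p = 0.0182). With the GC trend subtracted its ratios were 0.146 and 0.00860. *Calm2* was at 0.365 (0.342 to 0.388) and 0.324 (0.306 to 0.344), with a limma adjusted p of 0.0128, and at 0.781 and 0.80 with the GC trend subtracted. *Cabp1* was at 0.201 (0.117 to 0.327) and 0.660 (0.465 to 0.929), with a limma adjusted p of 0.138, and at 0.115 and 0.381 with the GC trend subtracted.

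The 3 highest under the same minimum were *Ryr3*, a ryanodine receptor of low level in the heart, *Jph2*, which holds the junction of T-tubule and sarcoplasmic reticulum, and *Rrad*, an RGK protein that inhibits L-type current through the β subunit. *Ryr3* was at 9.31 (7.18 to 12.3) at 2 months and 0.470 (0.412 to 0.536) at 6 months, opposite in direction like *Cacna2d2*. With the GC trend subtracted it was at 10.5 and 0.524. Its controls differed 11.6-fold, with 57.1 and 692.2 normalized counts. The csPIMT-/- libraries, with 542.5 and 334.0, both lay between them. *Jph2* was at 1.66 at both ages, and at 0.981 and 0.954 with the GC trend subtracted. *Rrad* was at 2.49 (2.41 to 2.56) and 1.09 (1.06 to 1.12), and at 1.52 and 0.656 with the GC trend subtracted. None of these 3 was called by limma, where the adjusted p was 0.418, 0.0569 and 0.133.

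Among markers of other cells of the heart, the summed level of endothelial genes was 60168 and 43396 normalized counts in the controls and 39858 and 43204 in the csPIMT-/- libraries. That of fibroblast genes was 145135 and 81411 against 119245 and 137952, and that of neuronal genes 550 and 505 against 1090 and 1014. Genes of a list did not all move with its sum. At 6 months 3 of 6 endothelial genes were below a ratio of 1 and 3 above. Of the neuronal genes compared, 2 of 4 were above 1 at 2 months and 4 of 5 at 6 months. *Dbh*, the most abundant of them in the controls, was lower at both ages, with 374.7 and 229.5 against 340.3 and 155.0. Smooth muscle genes summed to 116470 and 102312 against 221781 and 300618, of which *Des*, also a gene of cardiomyocytes, made up 52.9% to 89.6%. At 2 months 5 of 7 smooth muscle genes were above a ratio of 2, and at 6 months 1 was above 2 and 4 were below 1, with a median ratio of 0.810. Without *Des*, a choice made after the values were seen, the other 6 summed to 54882 and 40906 in the controls and 67968 and 31119 in the csPIMT-/- libraries. *Th* and *Snap25* of the neuronal list were at 0 in both controls. The part of these cells in the subunit values was not tested.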

How the data were processed

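Heart RNA of 4 groups (PIMT fl/fl and csPIMT-/-, at 2 and 6 months) was sequenced as 1 library each, from 5 pooled hearts. Per the study's methods, reads were trimmed, freed of ribosomal RNA, aligned to mm10 with STAR, counted with htseq-count (HTSeq 0.6.1p1 in the submitters' processing notes) on a UCSC annotation and tested with DESeq2, whose version is not given in the sources used here. The values the authors deposited are a normalized read signal per gene symbol, on the scale of the median of ratios. One file, for csPIMT-/- at 6 months, heads its values as read counts, yet they are not whole numbers and were treated as normalized too. Every value is a whole multiple of the smallest above 0, and 100% of values came out whole (largest deviation 4.9e-09 reads), so whole reads were recovered.

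Ratios were scaled by the median of ratios of the pair of libraries, for genes with at least 10 reads in 1 of them, with 95% Clopper-Pearson intervals. log2 ratios used a pseudocount of 0.5 reads. The GC trend was a lowess curve (span 0.3) on the GC content of the longest GENCODE M21 transcript, which 90.7% (2 months) and 90.6% (6 months) of genes had. limma 3.58.1 was run on log2 of TMM-normalized reads plus 1, with genotype, age and a mean trend (1 residual degree of freedom, prior 4.50), on genes with at least 10 scaled counts in 2 libraries and a total of at least 15. edgeR 4.0.16 and DESeq2 1.42.0 on the recovered reads were alternatives and called 4127 and 5195 genes, against 4476 by limma. The scripts were tested on simulated data. The labels give no batch or date, so no value within a batch can be had.

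The members and gene lists were chosen with earlier results of these data known. All members were named, along with other channel genes of at least 100 reads and the 3 lowest and 3 highest of the partner list. No promoter or protein sequence was used.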

Additional observations from a re-analysis of the deposited data

Results flagged for a closer look

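The ratio of csPIMT-/- over PIMT fl/fl of *Cacna2d2* was 4.0 at 2 months and 0.195 at 6 months, in opposite directions with both intervals off 1. *Cacna1c* was at 0.965 and 1.28 in the same way, a smaller departure. The difference between ages was not tested for either gene, since 1 library per group leaves no degree of freedom. *Cacna2d2* was at 192.1 and 479.3 normalized counts in the controls of 2 and 6 months. Scaled on that pair of libraries, it differed 2.38-fold between pools of 1 genotype, whereas *Cacna1c* differed 1.06-fold. No group had enough samples for a search for samples far from the others.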

How the results depend on the processing

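The counts of members past 2-fold were 4 at 2 months, and 3 to 4 under the alternatives, and 5 at 6 months, and 5 to 6. The 3 members past 2-fold between the controls became 2 with the GC trend subtracted, and the 3 between the csPIMT-/- libraries stayed 3, under settings chosen after seeing the data. With the control of the other age the 4 members at 2 months were *Cacna1h*, *Cacnb2* and *Cacna2d1* below 0.5 and *Cacnb3* above 2. With that control *Cacna1g* at 2 months turned from 0.665 to 1.04 and *Cacnb3* at 6 months from 1.79 to 0.838. The cause was not tested. Over both ages 4 members were called by limma, edgeR and DESeq2, with either normalization, a pseudocount of 5 reads, no minimum of reads and genotype alone in the model, but 0 with no mean trend (4 at an unadjusted p under 0.05) and 0 with the GC trend subtracted (3 unadjusted), settings under which limma called 0 of all genes. Leaving out 1 library in turn, with genotype alone in the model, gave 0 to 4, with 0 without the 6-month control (4 unadjusted), and the lone library of a genotype is then assumed to vary like the other genotype's pair. Under the alternatives the log2 difference of *Cacna2d2* ranged from -1.70 to 1.32, and adjusted p ranged from 1.54e-07 to 0.113 for *Cacna1h*, 7.47e-10 to 0.171 for *Cacna2d1*, 0.000142 to 0.219 for *Cacnb1* and 0.00127 to 0.238 for *Cacnb2*. No paired analysis was possible because each group has 1 library. With 1 pool per group, the reads (91 to 21103 per member and library) limit precision less than the missing replicates.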
